A study of Mus musculus with 4 samples.

Results

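Cxcl12 encodes a secreted chemokine, and Cxcr4 and Ackr3 encode the 2 receptors that bind it. These 3 genes were chosen by name and were followed in RNA sequencing of mouse telencephalic tissue at embryonic day 13 (E13), as 3 of the 27293 genes in the deposited count table. All 3 carried enough reads to be tested, among 16145 genes tested. The 4 libraries came from C57BL/6 embryos. Libraries WT 1 and WT 2 carry the genotype label WT, and libraries cKO 1 and cKO 2 the label STINGf/f;Nestin-Cre. In the latter a floxed STING gene, which encodes an adaptor of the cytosolic DNA sensing pathway, meets a Cre recombinase driven by the Nestin promoter, which is active in neural progenitors. Meningeal and blood vessel cells lie largely outside that lineage. The labels give neither the Cre nor the floxed status of the WT embryos, nor whether a library holds a single embryo or a pool, so the p-values measure only the spread between these samples, which may be technical. The title of WT 2 carries an abbreviation that differs from that of WT 1 and is not explained. RNA was treated as bulk tissue throughout, and fewer cells of a type and less RNA per cell cannot be told apart.

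CXCL12 guides migrating cells by binding CXCR4, a receptor that couples to inhibitory G proteins. In the embryonic forebrain the ligand is made by the meninges that cover the cortex and by vessels, and within the cortex by intermediate progenitors. CXCR4 is carried by Cajal-Retzius cells, which spread beneath the meninges, and by GABA neurons that stream in from the ventral telencephalon. ACKR3, an atypical chemokine receptor that recruits arrestins instead of G proteins, takes up and clears CXCL12, and so sets how much ligand reaches CXCR4.

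Each library held between 17209654 and 18533391 counts, and 3 counts corresponded to between 0.163 and 0.173 CPM, that is, counts scaled to a common library size. Where values are given in pairs, replicate 1 of a group comes first. The STING gene (Tmem173 in the table, ENSMUSG00000024349) gave 20 and 19 reads in the WT pair against 18 and 22 in the cKO pair. Its count was therefore not lower in the libraries labelled cKO (log2 fold change 0.02, SE 0.45, adjusted p = 0.9999, edgeR), and a gene count cannot show which exons the reads came from. Directions below are those between the labelled libraries. WT 1 stood apart from the other libraries in its markers of neighbouring tissues. The 12 markers of meninges and mesenchyme summed to 313 and 61.6 CPM in WT against 87.1 and 48.2 CPM in cKO, and the 10 markers of choroid plexus to 79.0 and 16.8 CPM against 14.4 and 15.3 CPM.

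The ligand gene Cxcl12 (ENSMUSG00000061353) is placed on chromosome 6, plus strand, from 117168535 to 117181367 (GRCm38). GENCODE M21 gives it 3 complete coding transcripts of 1878, 3132 and 5627 bases, whose different last exons add to 8176 exon bases together with a transcript that retains an intron. Cxcr4 (ENSMUSG00000045382) is placed on chromosome 1, minus strand, from 128588199 to 128592293, with 1808 exon bases. Ackr3 (ENSMUSG00000044337) is placed on chromosome 1, plus strand, from 90203980 to 90216751, with 3348 exon bases. The 250 bases before each RefSeq start are shown because the study followed STING signalling through NF-κB, a factor whose binding motif could be looked for there. The sequences are from RefSeq (GRCm38.p6) and run 5′ to 3′ on the strand of the gene, at chr6:117168285-117168534 (plus), chr1:128592300-128592549 (minus) and chr1:90203730-90203979 (plus). The RefSeq start of Cxcl12 and of Ackr3 is the base where the gene begins above, and that of Cxcr4 lies a few bases upstream of it. Capitals mark every match to TATAAA (the TATA box) or GGGCGG (the GC box) on either strand.
Cxcl12: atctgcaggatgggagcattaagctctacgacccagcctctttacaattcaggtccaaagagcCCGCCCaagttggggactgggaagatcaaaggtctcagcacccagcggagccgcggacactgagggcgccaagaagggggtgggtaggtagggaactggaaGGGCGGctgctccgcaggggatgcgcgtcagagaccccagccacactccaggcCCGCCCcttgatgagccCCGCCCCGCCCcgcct
Cxcr4: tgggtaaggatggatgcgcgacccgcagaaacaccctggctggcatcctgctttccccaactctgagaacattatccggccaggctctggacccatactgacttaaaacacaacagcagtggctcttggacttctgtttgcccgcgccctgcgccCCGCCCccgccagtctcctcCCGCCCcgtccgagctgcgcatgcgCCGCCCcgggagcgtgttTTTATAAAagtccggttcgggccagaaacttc
Ackr3: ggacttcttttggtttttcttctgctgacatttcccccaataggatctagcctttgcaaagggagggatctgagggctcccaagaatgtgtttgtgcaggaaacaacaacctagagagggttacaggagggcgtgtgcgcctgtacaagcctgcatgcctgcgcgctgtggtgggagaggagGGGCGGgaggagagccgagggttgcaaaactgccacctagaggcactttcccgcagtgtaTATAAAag
The Cxcl12 window held 5 matches to GGGCGG, of which the last 2 share a base, and 0 matches to TATAAA. The Cxcr4 window held 3 matches to GGGCGG and 2 to TATAAA, which overlap and lie on opposite strands, the nearer one starting at position −30 from the RefSeq start. The Ackr3 window held 1 match to each, with TATAAA starting at position −8. No window held a match to the NF-κB motif on either strand. Among 32851 promoter windows of the same length, 12.4% held TATAAA, 32.7% held GGGCGG and 3.9% held the NF-κB motif. These are matches of letters in short windows and carry no measurement of binding. The NF-κB binding that the paper reports at Alx4 lay mainly further upstream than these windows reach. Sites at such a distance would not be seen here.

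Neither the ligand nor either receptor differed between the libraries labelled cKO and WT beyond the spread between replicates. Cxcl12 counts were 1117 and 725 in WT and 854 and 610 in cKO. After TMM normalization these were 64.2 and 39.4 CPM against 46.7 and 34.1 CPM, so that cKO 1 lay above WT 2 and the groups overlapped. The mean was 51.8 ± 17.6 CPM in WT (SD, n = 2) and 40.4 ± 8.86 CPM in cKO (SD, n = 2). The log2 fold change of cKO over WT was −0.36 (SE 0.26, 95% interval −0.96 to 0.25, adjusted p = 0.9999 from the quasi-likelihood test of edgeR, Benjamini-Hochberg method), so the fitted interval reached from 0.513-fold to 1.19-fold.

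The replicates of a group differed as much as the groups did. The Cxcl12 level of WT 1 was 1.63 times that of WT 2 (95% interval for counting error only, 1.48 to 1.79), and that of cKO 1 was 1.37 times that of cKO 2 (1.23 to 1.52). Counting error therefore does not cover the spread between replicates. The level of cKO 1 was 1.19 times that of WT 2 (1.07 to 1.31), whereas that of cKO 2 was 0.531 times that of WT 1 (0.481 to 0.587). The difference between groups rested on WT 1 and, less so, on cKO 2. Without WT 1 the log2 fold change of Cxcl12 was 0.04, and without WT 2 it was −0.66. It was −0.60 without cKO 1 and −0.14 without cKO 2. The unadjusted p was 0.0428 without WT 2 and 0.0463 without cKO 1, where the lone library was assumed to vary like those of the other group, but the fold stayed under 2. Cxcl12 was called in none of the settings tried, and its lowest adjusted p over them, with edgeR or DESeq2, was 0.320.

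Cxcr4 encodes the signalling receptor. Its counts were 548 and 491 in WT and 465 and 493 in cKO, or 31.5 and 26.7 CPM against 25.4 and 27.6 CPM. WT 1 was highest, WT 2 lay between the 2 cKO libraries, and the groups overlapped. The mean was 29.1 ± 3.43 CPM in WT and 26.5 ± 1.54 CPM in cKO (SD, n = 2 each). The log2 fold change was −0.13 (SE 0.18, 95% interval −0.56 to 0.29, adjusted p = 0.9999, edgeR), a fitted range of 0.679-fold to 1.22-fold. Leaving out each library in turn gave log2 fold changes from −0.24, without WT 2, to −0.01, without WT 1.

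Ackr3 encodes the scavenging receptor. Its counts were 738 and 753 in WT and 654 and 745 in cKO, or 42.4 and 40.9 CPM against 35.7 and 41.7 CPM. The WT libraries and cKO 2 lay close together, with cKO 2 between them, and cKO 1 was lowest. The level of cKO 1 was 0.857 times that of cKO 2 (95% interval for counting error only, 0.771 to 0.954) and 0.842 times that of WT 1 (0.757 to 0.937). The mean was 41.7 ± 1.10 CPM in WT and 38.7 ± 4.21 CPM in cKO (SD, n = 2 each), and the log2 fold change was −0.11 (SE 0.17, 95% interval −0.50 to 0.29, adjusted p = 0.9999, edgeR), a fitted range of 0.708-fold to 1.22-fold. Without cKO 1 the log2 fold change was 0.0030.

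**Figure D1:**
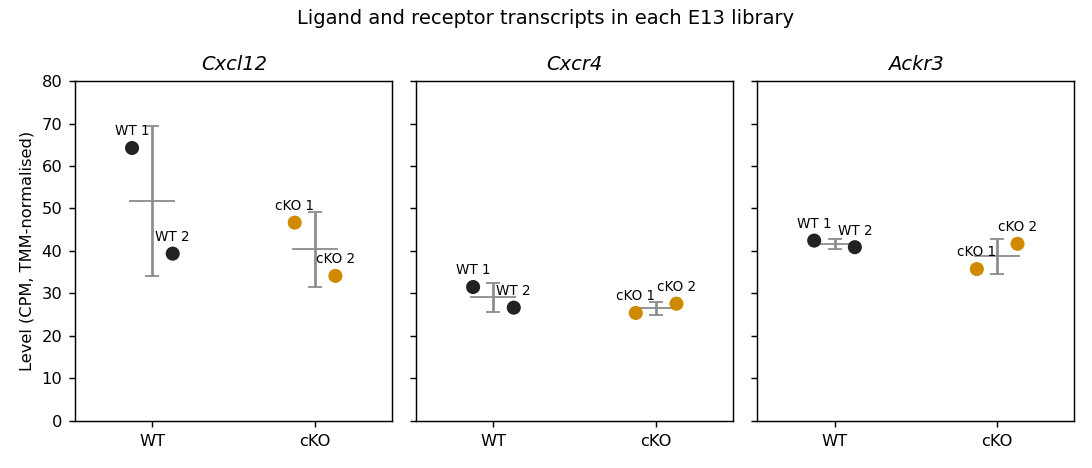
Level of Cxcl12, Cxcr4 and Ackr3 in each library (y axis, TMM-normalised CPM). Points are libraries, and grey bars give the group mean and SD (n = 2). In every panel a cKO library lies above WT 2, and Cxcl12 has the widest spread within a group, from 39.4 to 64.2 CPM in WT.

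Of the 16145 genes tested, 131 (0.811%) passed the study's thresholds, which ask for a 2-fold difference and for an unadjusted p-value no larger than 0.05, with 108 lower and 23 higher in cKO. None of the 3 genes was among them. At that share a list as short as those below is apt to hold no call, so 0 calls do not set a list apart from all genes. Without WT 1 there were 104 calls, 47 lower and 57 higher, and without WT 2 and cKO 1 there were 476 and 531. At a Benjamini-Hochberg adjusted p under 0.05 edgeR called 0 genes (0%), with 199 genes at an unadjusted p under 0.05, and DESeq2 also called 0. The cKO libraries were both below the WT libraries for 10.8% of all genes and above both for 11% of them, and 0 of the 3 genes had such a separation in either direction. The fold changes of all 3 genes were negative, as were those of 52.1% of all genes, whose median log2 fold change was −0.01. All 3 genes were highest in WT 1, as were 25.1% of all genes.

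**Figure D2:**
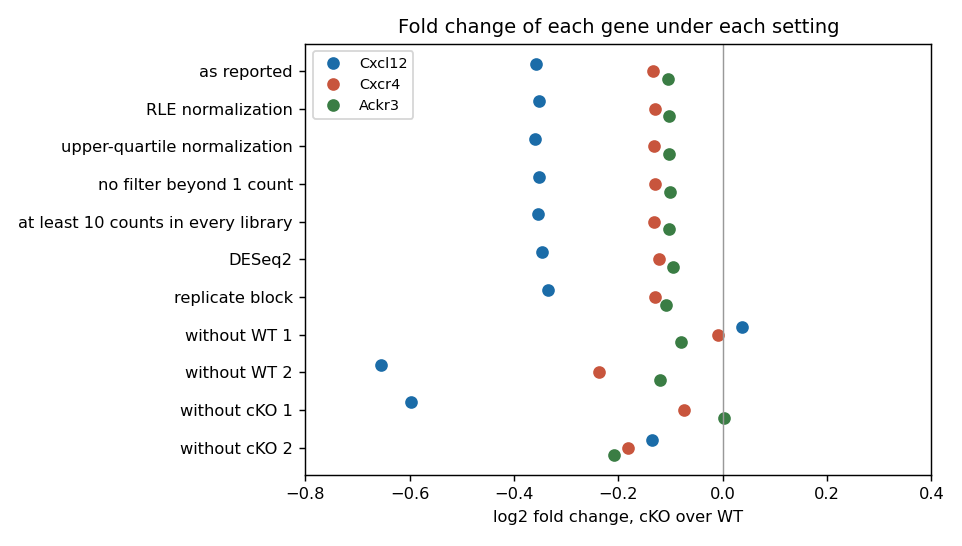
Log2 fold change of cKO over WT (x axis) for Cxcl12, Cxcr4 and Ackr3 under each setting of the fit (y axis). The normalizations, filters and DESeq2 change each gene's value little, whereas Cxcl12 moves between −0.66 without WT 2 and 0.04 without WT 1.

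The ratio of ligand to receptor within a library does not depend on its depth. For Cxcl12 over Cxcr4 the ratio of counts was 2.04 and 1.48 in WT and 1.84 and 1.24 in cKO, each group holding a higher and a lower library. The mean log2 ratio was 0.79 ± 0.33 in WT and 0.59 ± 0.40 in cKO (SD, n = 2 each), a difference of −0.20 (two-sided exact permutation test, p = 0.667, not adjusted for the 2 ratios). For Ackr3 over Cxcr4, scavenging over signalling receptor, the ratio of counts was 1.35 and 1.53 in WT and 1.41 and 1.51 in cKO. Both cKO values lay between those of WT, and the difference of the mean log2 ratios was 0.02 (two-sided exact permutation test, p = 1, not adjusted). With 2 libraries against 2 the smallest p this test can give is 0.333. The Ackr3 to Cxcr4 ratio spanned a narrower range over the 4 libraries than the Cxcl12 to Cxcr4 ratio.

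Levels of different genes were compared per kilobase of exon. Over merged exons the level ran over the 4 libraries from 14.1 to 17.4 CPM per kb for Cxcr4, from 10.7 to 12.7 for Ackr3 and from 4.18 to 7.86 for Cxcl12. By its mean on this scale Cxcr4 exceeded 73.9% of 13719 protein-coding genes tested, Ackr3 67.6% and Cxcl12 47.5%. Cxcr4 lay above Ackr3 in every library, and their ranges over libraries did not overlap. The place of the ligand depended on the transcript length used. With the 1878-base transcript, Cxcl12-202, its mean was 24.6 ± 7.00 CPM per kb and its lowest library, at 18.2, lay above the highest value of Cxcr4 on its 1805-base transcript, 17.5. With the 3132-base transcript, Cxcl12-203, its range of 10.9 to 20.5 CPM per kb overlapped those of both receptors, and with the 5627-base transcript, Cxcl12-201, its range of 6.07 to 11.4 lay below that of Ackr3 on its 3065-base transcript, 11.7 to 13.8. Gene counts do not tell these transcripts apart, so the order of ligand and receptor transcripts was not settled by these data.

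**Figure D3:**
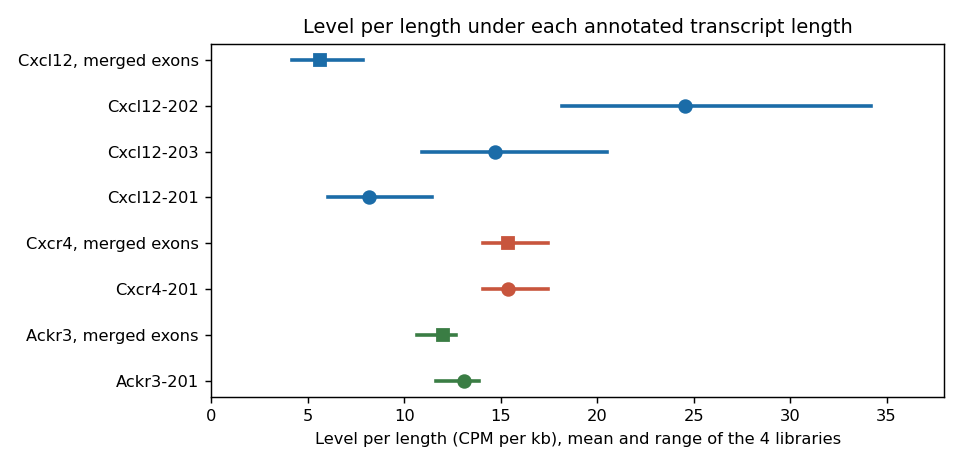
Mean level per length (x axis, CPM per kb of exon) of each gene over its merged exons (squares) and over each complete coding transcript (circles). Bars run from the lowest to the highest of the 4 libraries. Cxcl12 lies below both receptors on merged exons and above both when its 1878-base transcript is used.

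Genes that cut, share or compete for the ligand and its receptors held the only pathway gene that passed the study's thresholds. Of 10 listed genes 9 were in the table and 8 were tested, with 1 called lower and 0 called higher, beside a share of 0.811% over all genes. The median log2 fold change was −0.15, against −0.01 over all genes. The called gene was Mmp2, a matrix metalloproteinase that can cleave CXCL12 and is also made by fibroblasts. Its counts were 270 and 125 in WT and 95 and 89 in cKO, so the groups did not overlap (log2 fold change −1.13, SE 0.39, adjusted p = 0.9999, edgeR). WT 1, the library with the most meningeal marker RNA, was again highest. The part of the meningeal RNA in the Mmp2 levels was not tested. Without WT 1 the log2 fold change of Mmp2 was −0.42 and the list gave 0 calls, whereas without WT 2 and without cKO 2 it gave 2 each, both lower. Adm, whose product adrenomedullin is also bound by ACKR3, counted 84 and 39 reads in WT and 16 and 44 in cKO (log2 fold change −1.05, SE 0.58). It was not called, but passed the thresholds without WT 2 (−1.52), without cKO 2 (−1.97) and without the filter on low counts (−1.05). On the positive side, Cxcl14, a chemokine of the same family, had a log2 fold change of 0.21 (SE 0.29) and Mmp14, a membrane-bound metalloproteinase, 0.14 (SE 0.14), neither of them called. Cd74, a receptor for the cytokine MIF, had at most 8 counts in a library and was not tested, and Cxcl11, the other chemokine that ACKR3 binds, is not analysed here.

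The machinery that switches the receptors off gave no call, beside a share of 0.811% over all genes. This list of 10 genes holds kinases that phosphorylate the receptors, the arrestins that bind them afterwards and the sorting proteins that take CXCR4 to lysosomes. All 10 were tested, with 0 called and a median log2 fold change of −0.07 (0.05 without WT 2). The widest values were −0.29 (SE 0.22) for the receptor kinase gene Grk3 and −0.20 (SE 0.25) for the sorting gene Stam on the negative side. On the positive side they were 0.12 (SE 0.17) for Grk2 and 0.09 (SE 0.17) for the sorting gene Hgs. Grk3 counts were 354 and 428 in WT and 372 and 272 in cKO. In CPM its groups did not overlap, but WT 1 (20.4 CPM) and cKO 1 (20.3 CPM) were nearly equal.

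The G proteins, small GTPases and kinases that carry CXCR4 signals to the cytoskeleton gave no call either, beside the same share of 0.811%. All 22 were tested, 13 with negative and 9 with positive fold changes, and the median log2 fold change was −0.02 (0.015 without WT 2). Gnai1, an inhibitory G protein subunit, counted 618 and 605 reads in WT and 562 and 390 in cKO. Its groups did not overlap, and most of the gap came from cKO 2 (log2 fold change −0.38, SE 0.21, adjusted p = 0.9999, edgeR). The next widest value on that side was −0.18 (SE 0.17) for Gng2, a G protein gamma subunit. On the positive side stood Gnb2, a beta subunit, at 0.12 (SE 0.19), and Ptk2, which encodes focal adhesion kinase, at 0.12 (SE 0.15).

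Few other chemokine genes were measurable in this tissue. Of 35 other chemokines and chemokine receptors 25 were in the table, 11 of these had 3 counts or fewer in every library, and 8 were tested, with 0 called and a median log2 fold change of −0.17. Without WT 2, 1 of 10 tested was called lower, and without cKO 1 the median was 0.05. Ccl25 had a log2 fold change of −0.30 (SE 0.23), with 263 and 246 reads for WT against 234 and 185 for cKO, and its groups did not overlap. Cx3cl1, the ligand through which neurons address microglia, was the single gene with a positive value, 0.01 (SE 0.30).

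**Figure D4:**
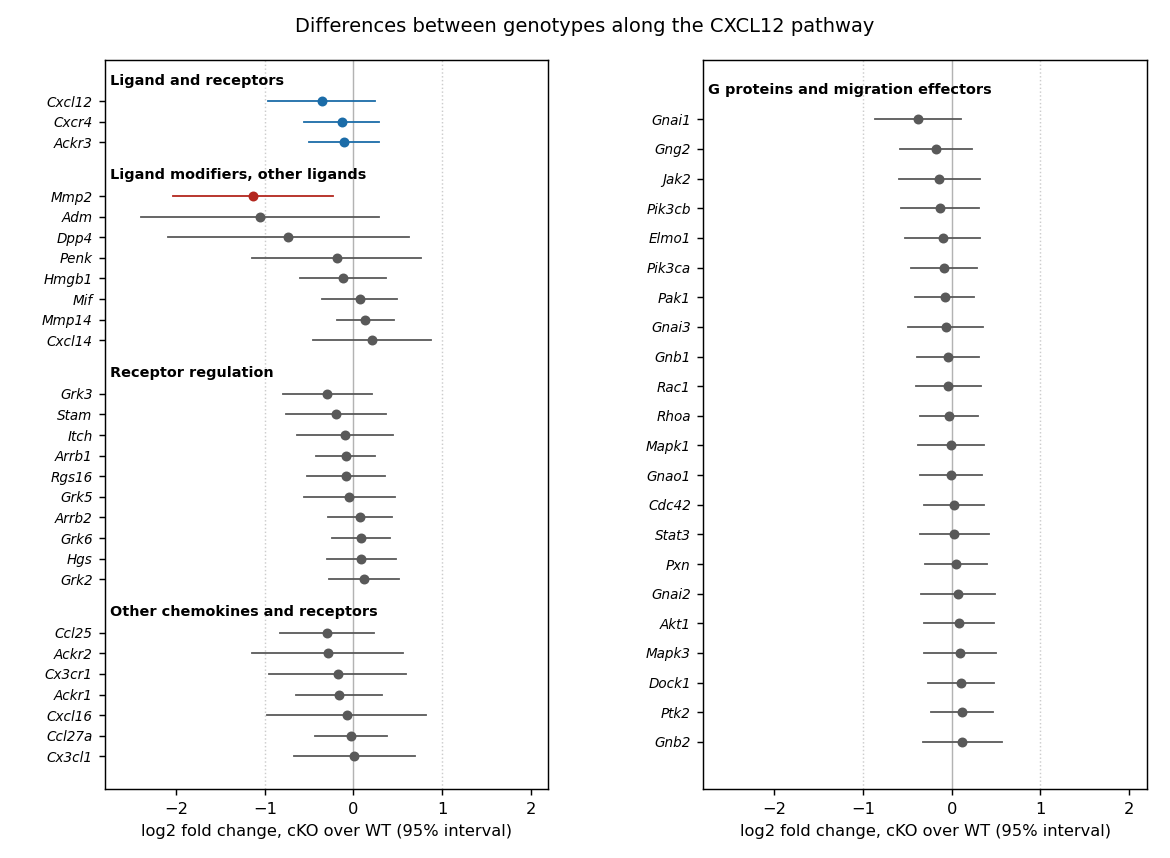
Log2 fold change of cKO over WT with its 95% interval (x axis, edgeR) for Cxcl12, Cxcr4 and Ackr3 (blue) and for tested genes of 4 pathway lists. Dotted lines mark a fold of 2, and Mmp2 (red, −1.13) is the single gene past the study's thresholds.

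Marker RNA of the meninges, a known source of the ligand, was unequal between the libraries. Of the 12 meningeal and mesenchymal markers, none was at 0 in all libraries, and 10 were tested. Beside a share of 0.811% over all genes, 2 were called lower in cKO. These were the fibrillar collagen genes Col1a1, with 1160 and 179 reads for WT against 221 and 106 for cKO (log2 fold change −2.08, SE 0.75), and Col1a2 (−1.59, SE 0.69). Lum, which encodes the matrix proteoglycan lumican, had a log2 fold change of −1.71 (SE 0.91) and was not called. All 12 markers were highest in WT 1. Without WT 1, 0 of the 10 tested markers were called and their median log2 fold change went from −1.24 to 0.21. The calls numbered 11 of 12 tested without WT 2, 6 of 12 without cKO 1 and 0 of 12 without cKO 2. Without the filter on low counts 8 of 12 were called, Lum among them. With DESeq2 neither collagen gene was called and 1 other marker of 12 was, and Col1a2 was not called with DESeq2's size factors (RLE) in edgeR. The sum of the markers followed the order WT 1, cKO 1, WT 2, cKO 2, which is the order of Cxcl12. That order was held by 6 of the 10 tested meningeal markers, by 2 of the 10 markers of endothelium and mural cells and by 8.45% of all genes. Between WT 1 and WT 2 the meningeal sum differed 5.08-fold and Cxcl12 1.63-fold. The part of the meningeal RNA in the Cxcl12 levels was not tested.

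The second known source, the vessels, gave no call among 10 tested markers. All 10 fold changes were negative, with a median log2 fold change of −0.34. The sums were 304 and 229 CPM in WT and 210 and 203 CPM in cKO. Both cKO sums lay below both WT sums, a separation that 10.8% of all genes had. The vascular endothelial growth factor receptor genes Flt1 (log2 fold change −0.64, SE 0.22) and Kdr (−0.54, SE 0.25) had the widest differences, each under a fold of 2. Without WT 1 the median of the list was −0.13. Markers of intermediate progenitors, which make the ligand inside the cortex, gave 0 calls of 8. Their sums were 1038 and 1098 CPM in WT and 1128 and 1134 CPM in cKO, so that the cKO libraries were the 2 highest, as for 11% of all genes. Their widest log2 fold changes were −0.35 (SE 0.29) for Neurod1 and −0.09 (SE 0.19) for Neurog1 on the negative side, and 0.20 (SE 0.15) for Eomes and 0.11 (SE 0.16) for Sstr2 on the positive side. The part of vessels and intermediate progenitors in the Cxcl12 levels was not tested.

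With all libraries, markers of the cells that carry CXCR4 gave no call, beside a share of 0.811% over all genes. The 9 markers of Cajal-Retzius cells summed to 756 and 889 CPM in WT and 883 and 691 CPM in cKO, and the groups overlapped. Their median log2 fold change was −0.03, and the widest values were −0.29 (SE 0.18) for Calb2 and −0.23 (SE 0.23) for Nhlh2 on the negative side, and 0.12 (SE 0.29) for Lhx1 and 0.06 (SE 0.20) for Trp73 on the positive side. Reln and Tbr1 weighed most in the Cajal-Retzius sum. Trp73, Lhx1 and Lhx5 were highest in cKO 2, where the sum was lowest, while Ebf2, Nhlh2 and Tbr1 were lowest there. The 14 markers of GABA neurons summed to 1309 and 1294 CPM in WT and 933 and 1323 CPM in cKO. Here cKO 1 was lowest, as it was for Cxcr4 and Ackr3, and the other libraries lay close together. Their median log2 fold change was −0.20, with 13 of 14 values negative and 0 called. Without cKO 1 the median was 0.03 with Erbb4 called (−1.29), and without cKO 2 it was −0.39 with Lhx8 called (−1.36). The neuregulin receptor gene Erbb4 stood at −0.69 (SE 0.31) and the transcription factor gene Lhx8 at −0.61 (SE 0.40), while Npas1 stood at 0.02 (SE 0.35).

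Cxcr4 and Ackr3 shared a single order of libraries, WT 1, cKO 2, WT 2, cKO 1, which 3.79% of all genes had. Among the lists, 6 of 9 tested red blood cell genes had this order, as did 4 of 10 genes of microglia and macrophages, 2 of 8 other chemokine genes and 2 of 10 genes of endothelium and mural cells. Of the cells that carry CXCR4, 2 of 14 GABA neuron markers and 0 of 9 Cajal-Retzius markers had it. The red blood cell genes summed to 1082 and 589 CPM in WT and 473 and 724 CPM in cKO, a span wider than that of either receptor. None of them was called with all libraries, while 2 were called lower without WT 2 and 1 without cKO 2. Among them, with all libraries, the log2 fold change was −0.83 (SE 0.47) for Hba-x and 0.01 (SE 0.57) for Hbb-bh1. The microglial and macrophage markers summed to 55.6 and 37.8 CPM in WT and 34.4 and 40.5 CPM in cKO. They gave 0 calls of 10 with edgeR, and 1 lower call with DESeq2, without the filter on low counts or without WT 2, in each case Mrc1, a macrophage receptor gene. In the edgeR fit of all libraries Mrc1 stood at −1.27 (SE 0.58), Fcer1g at −0.78 (SE 0.48) and C1qb at 0.03 (SE 0.35). The part of blood and immune cells in the receptor levels was not tested.

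**Figure D5:**
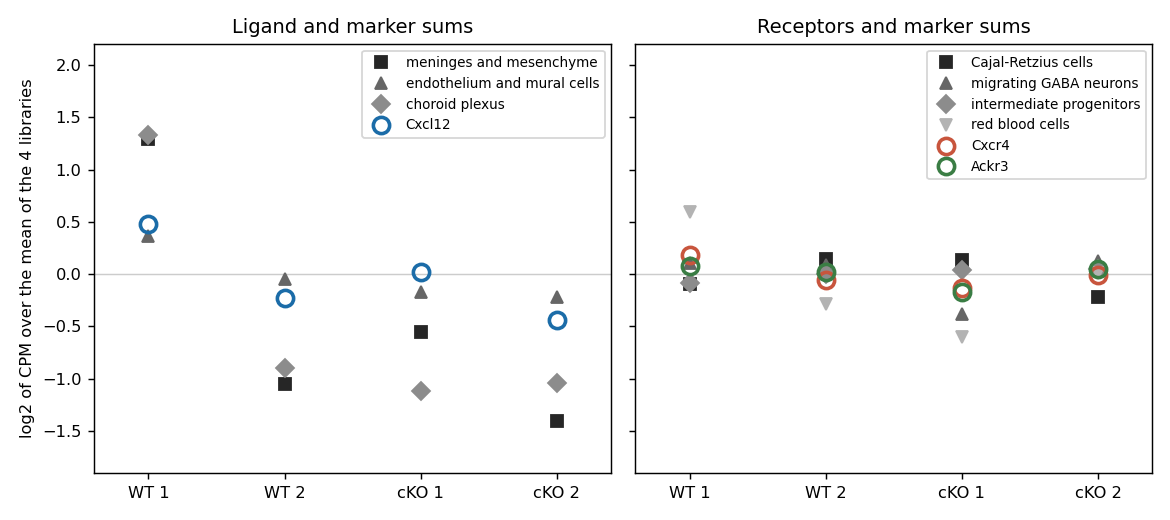
Level of each gene and summed level of each marker list in the 4 libraries (y axis, log2 of CPM over the mean of the 4 libraries). On the left, Cxcl12 (open circles) stands beside the meningeal, vascular and choroid plexus sums and shares the order WT 1, cKO 1, WT 2, cKO 2 with the meningeal sum. On the right, Cxcr4 and Ackr3 stand beside the lists of cells that carry CXCR4, of intermediate progenitors and of red blood cells, and are lowest in cKO 1.

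The remaining marker lists described the cortical tissue itself and the choroid plexus, a neighbouring tissue. The 9 radial glia markers summed to 2388 and 2231 CPM in WT and 2408 and 2450 CPM in cKO. Both cKO sums lay above both WT sums, a separation that 11% of all genes had. The markers gave 0 calls, with log2 fold changes between −0.16 (Sox2) and 0.17 (Nes), and with Hes5 at −0.14 and Emx2 at 0.17. The 8 markers of cortical neurons summed to between 5230 and 6116 CPM and gave 0 calls, from −0.30 for Dcx and −0.29 for Map2 to 0.16 for Neurod2 and 0.20 for Fezf2. Of the 10 choroid plexus markers 5 were tested. Beside a share of 0.811% over all genes, 4 were called lower in cKO. These were Htr2c (−3.44), Kcne2 (−3.33), Aqp1 (−2.66) and Otx2 (−1.33). The median log2 fold change of the tested markers was −2.66 with all libraries. It was −0.31 without WT 1 and −3.83 without WT 2, where 8 were tested.

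The genes whose profile over the 4 libraries lay nearest to each member were found among 12626 genes with a mean of at least 50 counts, by the Euclidean distance between mean-centred log2 CPM. For Cxcl12 they were Ube2w, at a distance of 0.0431, then Tmed5, Tmem64, Arxes1 and Tom1l1, at up to 0.0851. Ube2w counts were 656 and 435 in WT and 523 and 366 in cKO. For Cxcr4 they were Ccdc77, at 0.0346, then Coq3, Lrp2 and Dtx4, at up to 0.0466. For Ackr3 they were Vav2, at 0.0232, then Zbtb22, Lmo4, Zfp526 and Cxxc5, at up to 0.0317. With 4 libraries such a likeness describes these samples only.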

How the data were processed

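RNA of E13 telencephalic tissue was sequenced in 2 WT and 2 cKO libraries. The authors deposited raw counts of reads per gene. The submitters' processing notes name TopHat2 2.0.12, Bowtie2 2.2.3 and HTSeq 0.6.0, and the build mm9, but the positions of 97.3% of 27232 genes start or end within 1 base of GENCODE M21 (GRCm38), so that build was used. The strand setting is not given in the sources used here. Of 27304 table rows 11 (blank names) were left out. A second deposited table, of WT 1 and cKO 1, had identical counts for all 21342 shared genes and was otherwise not used. The deposited fold changes, p-values and normalized values were not used. There were 0 columns of other samples.

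Differences were fitted in edgeR 4.0.16 under R 4.3.3 (TMM, filterByExpr, quasi-likelihood test, no covariate), on all genes that passed the filter, after a check on simulated data. A call needed a 2-fold difference and an unadjusted p-value no larger than 0.05. Alternatives were other normalizations and filters, DESeq2 1.42.0, a replicate block and each library left out. Depth ran from 17209654 to 18533391 counts, and counting intervals cover counting error only. The members, lists and tests were chosen with earlier results of these data known. Named are the members, the called genes of each list and the 2 widest per direction, the 5 nearest profiles of each member and the STING gene. A few genes that this rule names are not reported here.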

Additional observations from a re-analysis of the deposited data

How the results depend on the processing

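The 131 calls over all genes became 405 without the filter, 72 when each library needed at least 10 counts, 82 with DESeq2, 14 with the p-value limit at 0.01, and between 104 (without WT 1, 47 lower and 57 higher) and 531 (without cKO 1) with a library left out; without WT 2 there were 476. The other normalizations gave 127 and 137. The cause was not tested, save that the filters change which genes enter. With a replicate block there were 208 calls (5 at an adjusted p under 0.05, edgeR), while Cxcl12, Cxcr4 and Ackr3 stayed uncalled at −0.33, −0.13 and −0.11. The numbers are not labelled as pairs, and deviations of same-numbered libraries correlated at 0.108 over genes. With the block 6 of 10 meningeal markers were called (Lum among them), 2 of 8 genes of the ligand modifier list (Mmp2 and Adm) and 1 of 10 microglial markers (Mrc1). The block turned the sign of Cx3cl1 (−0.022) and Npas1 (−0.0092). Cxcl12, Cxcr4 and Ackr3 were called in none of the 10 alternatives each. Leaving out a library moved their log2 fold changes from −0.66 to 0.037 for Cxcl12 (positive without WT 1), from −0.24 to −0.0095 for Cxcr4 and from −0.21 to 0.0030 for Ackr3 (positive without cKO 1). The difference in the Cxcl12 to Cxcr4 ratio then ran from −0.49 to 0.082 (0.030 without WT 1, 0.082 without cKO 2), and that in the Ackr3 to Cxcr4 ratio from −0.073 (without WT 1) to 0.11 (−0.031 without cKO 2). The settings for the lists and their genes were added after the data were seen. Among those genes the sign also changed with a library left out for Cxcl14 (−0.20 to 0.54), Stam (−0.63 to 0.15), Hgs (−0.091 to 0.26), Grk2 (−0.070 to 0.30), Gnb2 (−0.14 to 0.36), Cx3cl1 (−0.43 to 0.36), Col1a2 (−2.36 to 0.21), Lum (−2.95 to 0.57), Nhlh2 (−0.48 to 0.0049), Trp73 (−0.087 to 0.24), Lhx1 (−0.074 to 0.35), Npas1 (−0.38 to 0.34), Neurod1 (−0.72 to 0.028), Sstr2 (−0.045 to 0.30), Hes5 (−0.44 to 0.12), Emx2 (−0.021 to 0.41), Dcx (−0.91 to 0.15), Map2 (−0.82 to 0.11), Neurod2 (−0.030 to 0.39), C1qb (−0.25 to 0.41), Hba-x (−1.42 to 0.20), Hbb-bh1 (−0.60 to 1.11) and Kcne2 (−4.30 to 1.24). With 2 libraries a group, the intervals of Cxcl12, Cxcr4 and Ackr3 still reached down to 0.513-fold, 0.679-fold and 0.708-fold.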
